A study of Mus musculus with 8 samples.

Results

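Akr1c18, Ephx1, Hsd11b1 and Cyp11a1 encode enzymes that make, convert or break down steroids or epoxides, and they were read from the 4 probe sets that the platform table assigns to 1 of these symbols alone, 1 probe set per gene, of 35556 probe sets on the array. In CD4 T cells cultured toward the Th17 fate, in which helper T cells secrete interleukin 17, Akr1c18 and Ephx1 were higher in cells without the coactivator SRC-3 and higher in cells without the nuclear receptor RORγt than in the wild-type cells of the same experiment. Akr1c18 lay 5.94-fold above wild type in SRC-3-deficient cells and 1.91-fold above wild type in RORγt-deficient cells, and Ephx1 lay 1.84-fold and 1.53-fold above. For Cyp11a1 the deficient and wild-type arrays overlapped in both experiments, and Hsd11b1 stayed dim on all 8 arrays. The 4 genes were chosen by enzyme function with their measured differences in both comparisons known, so their values are descriptions and carry no test.

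Each of 8 arrays (Affymetrix Mouse Gene 1.0 ST) was hybridised with total RNA of 1 sample, and 4 groups held 2 arrays each. The groups were SRC-3-deficient cells, from mice labelled SRC-3 (f/f), with wild-type cells from SRC-3 WT mice, and RORγt-deficient cells, from mice labelled RORgt (-/-), with wild-type cells from RORgt WT mice. All 4 groups were labelled Th17 cells, and the protocol describes naive CD4 T cells activated through CD3 and CD28 while IL-1, IL-6 and IL-23 were present. The form f/f usually denotes a floxed allele, and the labels give no Cre driver, strain, age or sex.

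Steroid hormones start from cholesterol, which the mitochondrial enzyme encoded by Cyp11a1 cleaves to pregnenolone, and 3β-hydroxysteroid dehydrogenases turn pregnenolone into progesterone. The enzyme of Akr1c18, a hydroxysteroid dehydrogenase, reduces progesterone to a form that binds its receptor poorly; in mice it is best known from the ovary, where it ends luteal progesterone action, and its activity in T lymphocytes was an early readout for interleukin 3. The enzyme of Hsd11b1 regenerates active glucocorticoid from its inert keto form, and that of Ephx1, the microsomal epoxide hydrolase, turns epoxides into diols. Mouse CD4 T cells, Th2 cells above all, can make pregnenolone, and glucocorticoids and progesterone act on T cells through nuclear receptors, the class of factors that recruit coactivators such as SRC-3.

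Promoter sequence is shown for Akr1c18 and Ephx1, the pair that lay higher in both deficient groups. The RefSeq windows reach from 250 bases before to 50 bases after an annotated start site (build GRCm38.p6), and all 4 genes matched, with 5 windows in all. Capitals mark a match to 1 of 3 short motifs, searched on both strands: AGGTCA, the hexamer that many nuclear receptors bind and the core of the ROR element; AGAACA, a hexamer of glucocorticoid and progesterone receptor sites; and the antioxidant response element core, TGAC and GC with any 3 bases between. The first 250 bases of the Akr1c18 window, chr13:4150647-4150896 on the minus strand, hold none of these, and a stretch of 30 bases after its start site, chr13:4150602-4150631, are shown because they hold the AGGTCA whose first base is the transcript's base 28. The 250 bases before the Ephx1 start, chr1:181017570-181017819 on the minus strand, hold AGAACA, beginning 94 bases before the start.
Akr1c18 before the start: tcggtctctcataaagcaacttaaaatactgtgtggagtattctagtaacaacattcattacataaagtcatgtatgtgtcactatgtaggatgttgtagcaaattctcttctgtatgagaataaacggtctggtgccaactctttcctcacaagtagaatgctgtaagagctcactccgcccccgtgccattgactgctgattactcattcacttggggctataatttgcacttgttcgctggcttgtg
Akr1c18 after the start: agagaatcttctAGGTCAgagcagtggctg
Ephx1 before the start: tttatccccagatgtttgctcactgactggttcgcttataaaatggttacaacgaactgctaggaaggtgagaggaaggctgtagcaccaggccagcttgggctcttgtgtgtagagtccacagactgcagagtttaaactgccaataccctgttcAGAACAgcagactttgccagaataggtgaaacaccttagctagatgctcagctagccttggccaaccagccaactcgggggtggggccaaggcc
Of the other 3 windows, the Hsd11b1 window held the complement of the antioxidant core 191 bases before its start, 1 of the 2 Cyp11a1 windows held AGGTCA 28 bases before its start, and the other held none of the motifs. AGGTCA occurred in 16.3% of the 32851 windows in the table, AGAACA in 19.0% and the antioxidant core in 12.4%, so each of these matches is common in windows of this length. The motifs do not overlap each other in the windows of the 4 genes.

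Signals are log2 values that the authors normalised by RMA, and a difference of 1 on this scale is a doubling. Over all probe sets, array medians were 7.90 to 7.93 in the SRC-3 experiment, but 7.76 to 7.80 in the RORγt experiment, and whether all arrays were normalised together is not given in the sources used here. Levels set across the experiments are therefore given as listed, without a test. Ncoa3, the gene of SRC-3, gave 11.15 and 10.97 on the SRC-3-deficient arrays, against 11.76 and 11.53 on their wild-type arrays, and whether its probes lie in the deleted part was not established. The T cell genes Cd3e, Cd3g, Cd3d, Cd4 and Cd28 read between 11.58 and 13.56 on all arrays. Of genes that define Th17 cells, all 4 measured (Il17a, Il17f, Il23r and Ccr6) were lower in RORγt-deficient cells past the threshold, as were 9.37% of all genes. In SRC-3-deficient cells 1, Il17f, was lower past it (−1.03, limma adjusted p = 0.0347). There Il17a gave −1.10 (adjusted p = 0.0567) and Il23r −0.68 (adjusted p = 0.108), while Ccr6 went the other way (0.21, adjusted p = 0.534). The female transcript Xist read 7.10 on SRC-3-deficient replicate 1 against 13.52 to 13.65 on the other arrays of that experiment, and 6.37 and 6.08 on the RORγt-deficient arrays against 12.55 and 12.76 on their wild-type arrays. In the RORγt experiment, sex and genotype cannot be told apart.

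Cyp11a1 (probe set 10585794), the entry enzyme of steroid synthesis, was above the filter on every array and varied as much within groups as between them. SRC-3-deficient cells gave log2 signals of 9.10 and 8.61, against 9.10 and 8.84 on the SRC-3 wild-type arrays. One deficient array matched the higher wild-type array and the other was the lowest of all 8, so these groups overlapped. RORγt-deficient cells gave 9.04 and 9.69, against 8.85 and 9.07 on the RORγt wild-type arrays. Here too the groups overlapped, since 1 deficient array lay between the wild-type arrays and the other was the highest of all 8. The mean difference was −0.12 without SRC-3 and 0.40 without RORγt, each with an SE of 0.23 from the fit over all 8 arrays. Without RORγt-deficient replicate 2 the second difference was 0.08, and without replicate 1 it was 0.73.

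Akr1c18 (probe set 10407435), whose enzyme inactivates progesterone, had the widest range of the 4 genes, 2.84 log2 units over the 8 arrays. It read 12.23 and 12.25 on the SRC-3-deficient arrays, against 9.93 and 9.41 on the SRC-3 wild-type arrays. The deficient arrays agreed to within a few hundredths and the closest pair of deficient and wild-type arrays stood 2.30 log2 units apart. In the RORγt experiment the gene read 11.02 and 11.56 on the deficient arrays, against 10.38 and 10.34 on the wild-type arrays. These groups were also apart, by 0.64 at their closest, although the deficient arrays differed more from each other than the wild-type arrays did. The group means were 12.24 ± 0.02 in SRC-3-deficient and 9.67 ± 0.36 in SRC-3 wild-type cells, and 11.29 ± 0.39 in RORγt-deficient and 10.36 ± 0.03 in RORγt wild-type cells (SD, n = 2 each). The difference was 2.57 (SE 0.20) without SRC-3 and 0.93 (SE 0.20) without RORγt. In these RNA extracts of whole cultures, more cells that express a gene and more of its RNA per cell cannot be told apart.

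The SRC-3-deficient array with low Xist and its partner gave nearly the same Akr1c18 signal, and the difference was 2.58 without the first and 2.56 without the second. It was 2.83 without SRC-3 wild-type replicate 1 and 2.31 without wild-type replicate 2. In the RORγt comparison the difference was 1.20 without deficient replicate 1 and 0.66 without deficient replicate 2, and 0.96 without wild-type replicate 1 and 0.91 without wild-type replicate 2. From high to low the groups were ordered SRC-3-deficient, RORγt-deficient, RORγt wild type, SRC-3 wild type, and no neighbours in this order overlapped.

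**Figure D1:**
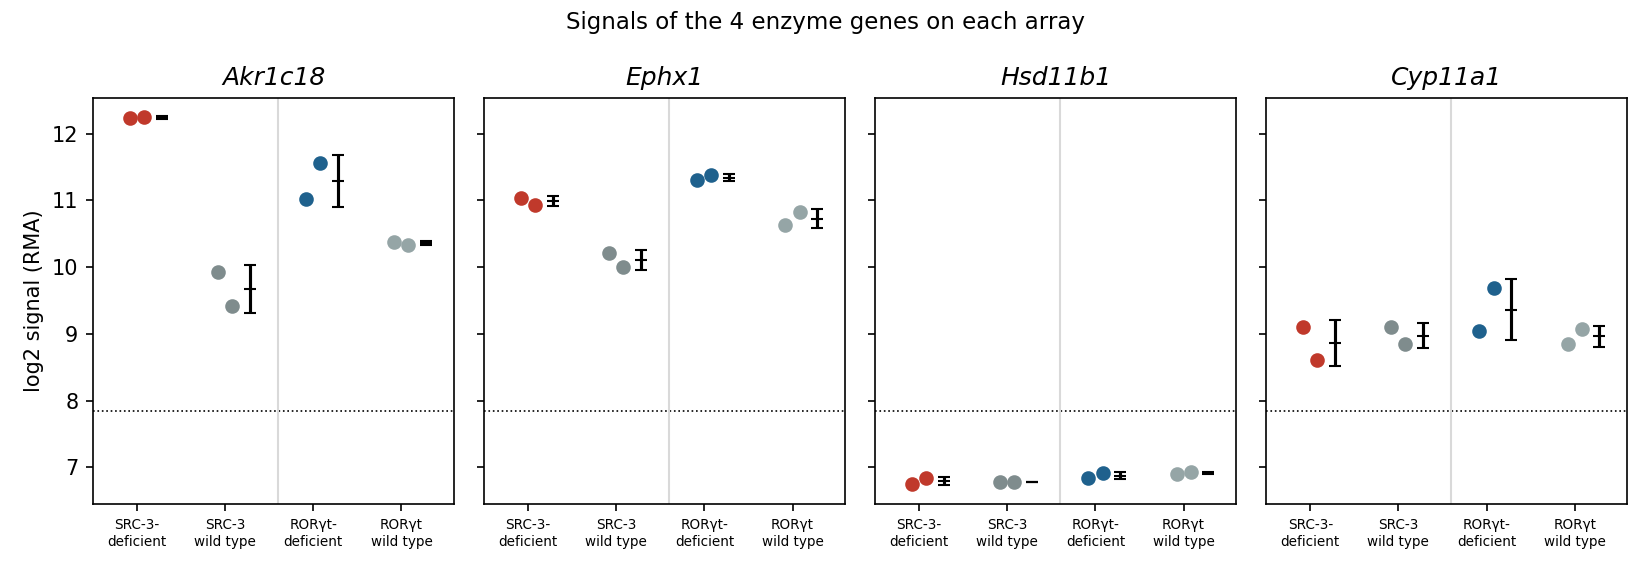
Log2 signal (vertical axis) of the 4 enzyme genes on each of the 8 arrays, with each deficient group left of its own wild type; points are arrays, black marks the group mean with its SD (n = 2), and the dotted line is the filter value of 7.85. Akr1c18 and Ephx1 lie higher in both deficient groups, the Cyp11a1 groups overlap, and Hsd11b1 lies under the line on every array.

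Hsd11b1 (probe set 10361234), the gene of the enzyme that reactivates glucocorticoids, lay between 6.75 and 6.92 on all 8 arrays, below the value of 7.85 that a probe set had to reach on 2 arrays to be kept. It read 6.75 and 6.84 on the SRC-3-deficient arrays, against 6.78 and 6.78 on the SRC-3 wild-type arrays, and 6.84 and 6.91 on the RORγt-deficient arrays, against 6.90 and 6.92 on the RORγt wild-type arrays. The groups overlapped in both experiments. The filter value is the median of all values and not a measured background. Whether a difference in a weakly expressed transcript could be detected at these signals was not tested. The other 3 genes passed the filter on all arrays.

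Ephx1 (probe set 10360684), the epoxide hydrolase gene, was the second of the 4 with groups that did not overlap. It read 11.04 and 10.93 on the SRC-3-deficient arrays, against 10.21 and 9.999 on the SRC-3 wild-type arrays. Every deficient array was above both wild-type arrays, with 0.72 between the closest pair. It read 11.30 and 11.38 on the RORγt-deficient arrays, against 10.63 and 10.82 on the RORγt wild-type arrays, again with no overlap and with 0.48 between the closest pair. The means were 10.98 ± 0.08 in SRC-3-deficient and 10.11 ± 0.15 in SRC-3 wild-type cells, and 11.34 ± 0.05 in RORγt-deficient and 10.73 ± 0.14 in RORγt wild-type cells (SD, n = 2 each). The difference was 0.88 (SE 0.10) without SRC-3 and 0.61 (SE 0.10) without RORγt. Leaving out single arrays moved the first between 0.77 and 0.99 and the second between 0.51 and 0.71. The order of the groups differed from that of Akr1c18: RORγt-deficient cells were highest, then SRC-3-deficient cells, then RORγt and SRC-3 wild-type cells, with no overlap between neighbours.

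Among the 11128 genes kept, Akr1c18 had the third highest difference in the SRC-3 comparison, after the Y-linked genes Eif2s3y and Uty, and ranked 110 from the top in the RORγt comparison, and Ephx1 ranked 35 and 314. By limma's adjusted p over all genes, 2 of the 3 enzyme genes kept were called higher and 0 lower in SRC-3-deficient cells, where 0.189% of all genes were called higher and 0.0359% lower. In RORγt-deficient cells 2 of 3 were called higher and 0 lower, where 10% of all genes were called higher and 9.37% lower (1114 and 1043 genes, against 962 and 1001 after a new quantile normalization and 1292 and 914 with each array shifted to 1 median). The same pair lay above wild type without overlap in each comparison. Of all genes, 37.2% did not overlap in the SRC-3 comparison, 23% higher and 14.3% lower, and 70% did not overlap in the RORγt comparison, 35.8% higher and 34.2% lower; 12.6% lay higher without overlap in both. The calls depend on single arrays: 25 genes in all were called in the SRC-3 comparison, against 61 when wild-type replicate 1 was left out and 0 by limma when wild-type replicate 2 was (1457 with an unadjusted p under 0.05); the count was 10 without deficient replicate 1 and 35 without deficient replicate 2. In the RORγt comparison 2157 were called, against 486 and 1001 without deficient replicate 1 and 2, and 626 and 558 without wild-type replicate 1 and 2. Since the contrasts served to choose the genes, nothing is read from these counts. The 2 comparisons share no array, but both used 1 fit and 1 estimate of each gene's spread. Their calls are therefore not independent. In both, 18 genes (0.162%) were called higher, among them Akr1c18 and Ephx1, which were chosen with both differences known. Of the others, Lratd1, Smpdl3b and Mctp1 had the largest differences in the SRC-3 comparison, 1.12, 0.97 and 0.87, and gave 1.21, 0.98 and 1.04 without RORγt.

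**Figure D2:**
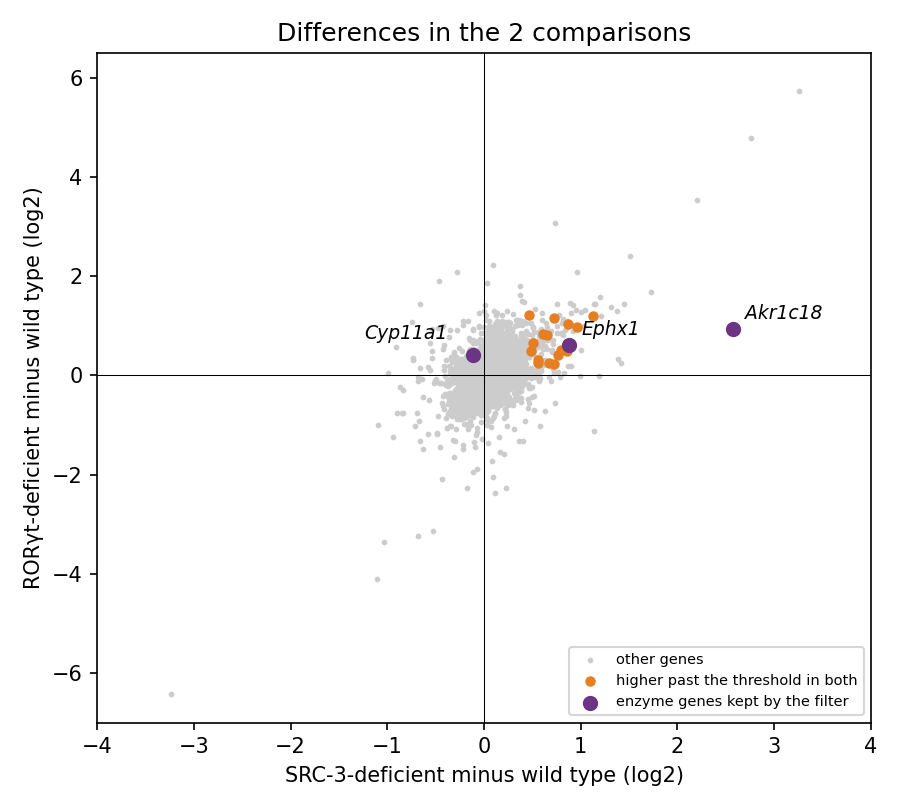
Each point is 1 of 11128 genes, with the SRC-3-deficient minus wild-type difference on the horizontal axis and the RORγt-deficient minus wild-type difference on the vertical axis (log2). Akr1c18 stands far to the right, at 2.57 and 0.93, Ephx1 lies among the orange points of genes called higher in both comparisons, and Cyp11a1 lies near the centre.

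Akr1c18 and Ephx1 varied together over the 8 arrays. After the mean of each experiment was subtracted, their signals correlated with r = 0.95, while the other 5 pairs of the 4 genes gave r between −0.13 and 0.30. These correlations describe 8 arrays that fall into deficient and wild-type groups, and a difference between groups shared by both genes is enough to give a high value. Of 284 candidate genes that ranged over at least 1 log2 unit, those most like Akr1c18 were Rasgef1b, an exchange factor for Ras-family GTPases (r = 0.96), Ephx1 itself, the zinc finger gene Plagl1 (r = 0.95) and the purinergic receptor gene P2ry1 (r = 0.94). Rasgef1b, Plagl1 and P2ry1 differed by 1.42, 0.90 and 0.86 without SRC-3 and by 0.25, 0.18 and 0.52 without RORγt. Those most like Ephx1 were the orphan receptor gene Gpr83 and the glutamate decarboxylase gene Gad2 (r = 0.98 each), Ms4a4b and the Th2 transcription factor gene Gata3 (r = 0.96 each). These 4 had differences of 1.003, 1.04, 1.31 and 0.80 without SRC-3 and 0.52, 0.99, 1.39 and 0.86 without RORγt, so their sizes in the 2 comparisons were closer to each other than those of Akr1c18. For Cyp11a1 the most similar were Ddr2 (r = 0.80), Itga4, Ly6g (r = 0.78 each) and Ndst3 (r = 0.75). For Hsd11b1, whose whole range was 0.18, they were Slc15a2 (r = 0.75), Enah (r = 0.66), Avpi1 (r = 0.60) and Ccdc86 (r = 0.58).

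Akr1c18 lies on chromosome 13 in a cluster of related genes, in the order Akr1c14, Akr1c18, Akr1c13, Akr1c19, Akr1c12, Akr1c6, Akr1c20 and Akr1c21. Each gene of this cluster has a probe set of its own, and the 7 neighbours of Akr1c18 were below the filter value on all 8 arrays. The nearest on one side, Akr1c14, a 3α-hydroxysteroid dehydrogenase, read between 5.27 and 5.83. The nearest on the other side, Akr1c13, was the brightest of the 7, with 7.13 and 7.58 on the SRC-3-deficient arrays, against 6.83 and 7.02 on the SRC-3 wild-type arrays. On the RORγt-deficient arrays it read 6.77 and 6.74, against 6.37 and 6.29 on the RORγt wild-type arrays. Its deficient arrays were above its wild-type arrays in both experiments, by 0.43 on average in each, and its experiment-centred signals correlated with those of Akr1c18 with r = 0.74. Genes of this cluster are similar in sequence, and whether probes of Akr1c13 also capture Akr1c18 transcript was not tested. Akr1c12 gave r = 0.57 with Akr1c18 and the other 5 gave r between −0.48 and 0.21.

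**Figure D3:**
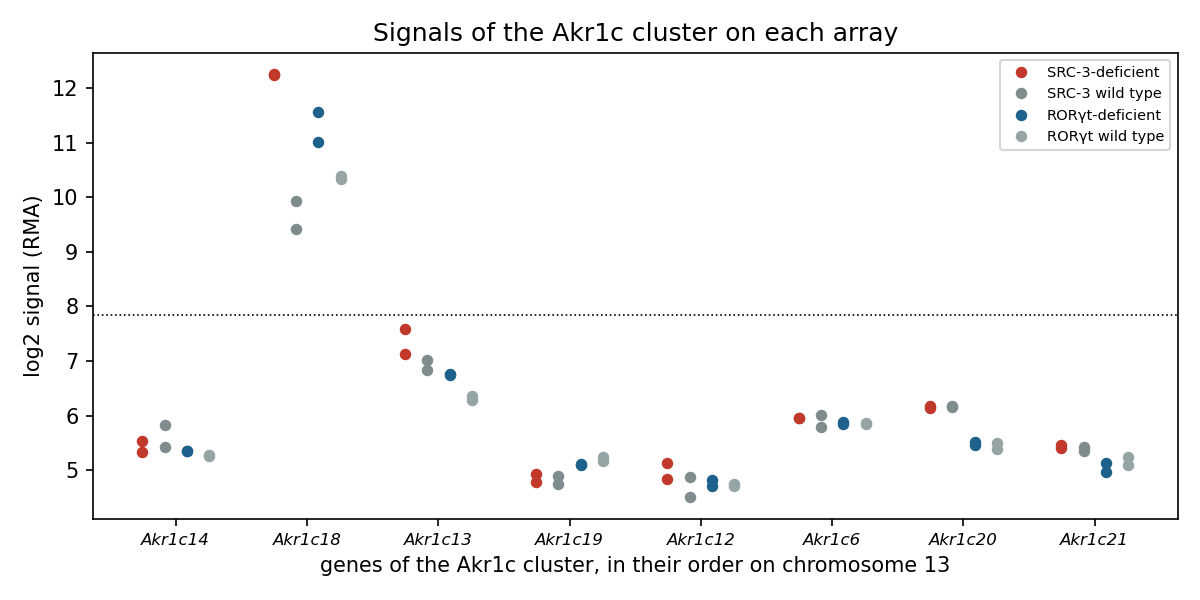
Log2 signals (vertical axis) of the 8 genes of the Akr1c cluster, in their order on chromosome 13, on each array; colours give the group, each deficient group standing left of its wild type, and the dotted line is the filter value of 7.85. Only Akr1c18 lies above the line, and Akr1c13 beside it is higher in each deficient group than in its wild type.

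To set these genes in their pathways, 172 other genes were listed by function, in 7 lists. Of these, 156 had a probe set of their own and 97 passed the filter. In the SRC-3 comparison 0 of the 97 passed an adjusted p of 0.05 by limma, against 0.225% of all genes, and 19 had an unadjusted p under 0.05, as did 1394 of the 11128 genes tested. In the RORγt comparison 27 of the 97 passed (27.8%, against 19.4% of all genes), 15 of them higher and 12 lower in deficient cells. The median difference of the 97 was 0.05 without SRC-3, where the median of all genes was 0.02, and 0.00 without RORγt, where that of all genes was 0.00. Over all genes in the SRC-3 comparison, 21 were called higher and 4 lower, or 16 and 6 after a new quantile normalization.

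Of 36 other genes of steroid synthesis measured, 17 were kept. In the RORγt comparison 3 of them fell and 0 rose (17.6% called, against 19.4% of all genes). Those that fell were Hsd17b12 (−0.49, SE 0.10, adjusted p = 0.0173), which acts in fatty acid elongation as well, the sterol carrier gene Stard4 (−0.42, SE 0.09, adjusted p = 0.0183) and the mitochondrial dehydrogenase gene Hsd17b10 (−0.24, SE 0.06, adjusted p = 0.0299). All 3 calls were lost on leaving out any 1 of the 4 arrays of that comparison. In the SRC-3 comparison the values with the smallest p were 0.26 for Tspo, the outer mitochondrial membrane protein (adjusted p = 0.163), and 0.23 for Hsd17b11 (adjusted p = 0.312).

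The partners of Cyp11a1 and Hsd11b1 were named for their role. Fdx1, which passes electrons to the side-chain cleavage enzyme, read between 8.04 and 8.52, and H6pd, which supplies the cofactor of the Hsd11b1 enzyme, between 9.17 and 9.56. Star, which delivers cholesterol to the enzyme in adrenal and gonadal cells, read between 7.44 and 7.97 and reached the filter value on 2 arrays. The 3β-hydroxysteroid dehydrogenase genes Hsd3b1, Hsd3b2 and Hsd3b6, of the step after Cyp11a1, lay between 4.88 and 5.92 on all arrays, and Cyp17a1, Cyp21a1 and Cyp11b1, of later steps, between 6.45 and 7.001. None of these 6 reached the filter value on any array. Hsd11b2, whose enzyme inactivates glucocorticoids, read between 7.05 and 7.34, also under the filter value on every array.

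Of the other aldo-keto reductases, 14 were measured and 5 kept (Akr1a1, Akr1b8, Akr1b10, Akr1e1 and Akr7a5). In either comparison 0 passed by limma, against 0.225% of all genes without SRC-3 and 19.4% without RORγt. Of the 5, 1 had an unadjusted p under 0.05 without SRC-3 and 0 without RORγt. In the SRC-3 comparison Akr1a1 gave 0.03 (adjusted p = 0.922), with the sign turned without deficient replicate 2 or wild-type replicate 1. Akr1b8 gave 0.24 without SRC-3 (adjusted p = 0.316) and −0.12 without RORγt (adjusted p = 0.379), and Akr1b10 gave −0.36 without RORγt (adjusted p = 0.184).

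The other genes of the Ephx family were dimmer than Ephx1. Ephx2, Ephx3 and Ephx4 read between 5.34 and 7.65 and reached the filter value on no array. Lta4h, whose enzyme opens the epoxide of leukotriene A, read between 10.94 and 11.46, close to Ephx1 in brightness. It lay above wild type without overlap in both comparisons, as did 12.6% of all genes. The differences were 0.11 without SRC-3 (limma adjusted p = 0.652) and 0.26 without RORγt (limma adjusted p = 0.0606). Of 29 genes of epoxide and xenobiotic metabolism kept, 8 rose and 4 fell in RORγt-deficient cells (41.4% called, against 19.4% of all genes). Those that rose included the glutathione transferase genes Gstt1 (1.02, SE 0.16, adjusted p = 0.00715), Gstt3 (0.58, adjusted p = 0.00845) and Gstt2 (0.40, adjusted p = 0.00833), and the quinone reductase gene Nqo2 (0.69, adjusted p = 0.00824). Gstt1 read 11.13 and 11.28 on the RORγt-deficient arrays, against 10.44 and 9.92 on the RORγt wild-type arrays, and 8.72 and 8.90 on the SRC-3-deficient arrays, against 9.13 and 8.93 on the SRC-3 wild-type arrays. It was higher in RORγt-deficient cells, and in the SRC-3 experiment both deficient arrays were slightly below both wild-type arrays (−0.22, adjusted p = 0.655).

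The cytochrome genes Cyp1a1 (1.30, SE 0.25, adjusted p = 0.0128) and Cyp1b1 (0.92, SE 0.13, adjusted p = 0.00505), which oxidise foreign compounds and are induced through the aryl hydrocarbon receptor, rose without RORγt too. Cyp1a1 read 8.56 and 8.23 on the RORγt-deficient arrays, against 7.09 and 7.10 on their wild-type arrays, both under the filter value. Cyp1b1 read 7.92 and 7.66, against 6.86 and 6.89, so in that experiment only RORγt-deficient replicate 1 reached the filter value. Those that fell were the transporter gene Abcc1 (−0.56, adjusted p = 0.00294), Gsto1 (−0.45, adjusted p = 0.00314), the sterol demethylase gene Cyp51 (−0.74, adjusted p = 0.00473) and the thioredoxin reductase gene Txnrd1 (−0.65, adjusted p = 0.0104). Cyp51 was counted in this list although its enzyme acts on sterols. The calls of Gstt1, Cyp1b1, Abcc1, Gsto1 and Cyp51 were kept on leaving out each of the 4 arrays in turn, and those of Gstt2, Gstt3, Nqo2, Cyp1a1 and Txnrd1 were lost without at least 1 of them. In the SRC-3 comparison Nqo2 gave 0.39 (adjusted p = 0.241) and Mgst3, a microsomal glutathione transferase gene, 0.26 (adjusted p = 0.214).

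**Figure D4:**
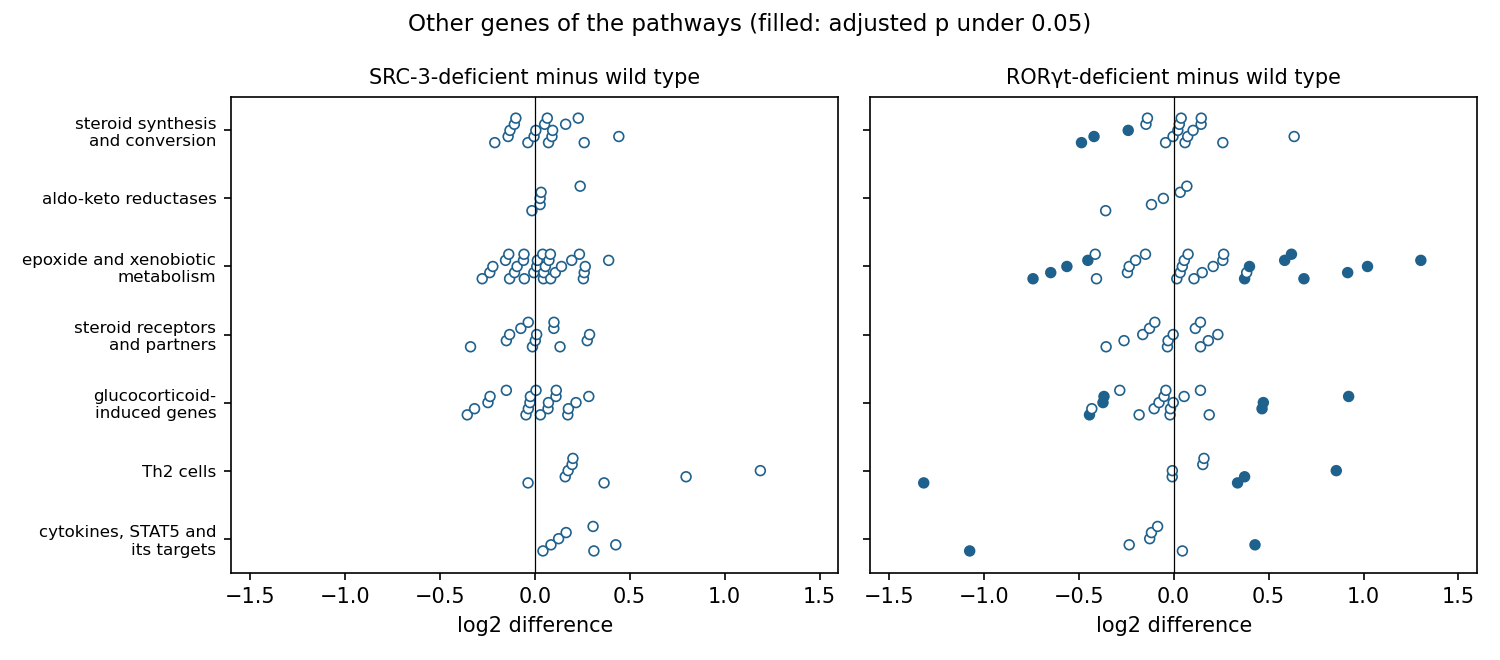
Log2 difference (horizontal axis) of each of the pathway genes kept by the filter, by list, in the SRC-3 comparison (left) and the RORγt comparison (right); filled points passed an adjusted p of 0.05 by limma. The left panel has no filled point. In the right panel 12 of 29 genes of the epoxide and xenobiotic list are filled, 8 to the right of 0 and 4 to the left. Their share is 41.4%, against 19.4% of all genes.

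Of 13 genes of steroid receptors and their partners kept, 0 passed in either comparison by limma (2 had an unadjusted p under 0.05 without SRC-3 and 4 without RORγt). Of all genes, 0.225% passed without SRC-3 and 19.4% without RORγt. Nr3c1, the glucocorticoid receptor gene, read between 9.11 and 10.03 on the 8 arrays, and Pgr, the progesterone receptor gene, between 6.65 and 6.91, below the filter on each. The membrane progestin receptor gene Paqr8 gave −0.34 without SRC-3 (adjusted p = 0.283) and −0.36 without RORγt (adjusted p = 0.0597), Paqr3 gave 0.28 without SRC-3 (adjusted p = 0.357), and the cochaperone gene Ptges3 gave −0.26 without RORγt (adjusted p = 0.0505).

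Of 19 genes known to be induced by glucocorticoids, 0 passed in the SRC-3 comparison by limma, against 0.225% of all genes. An unadjusted p under 0.05 was found for 5 of them, and for 1394 of the 11128 genes tested. In the RORγt comparison 3 rose and 3 fell (31.6% called, against 19.4% of all genes). The kinase gene Sgk1 (0.92, SE 0.09, adjusted p = 0.00119), Klf13 (0.47, adjusted p = 0.00846) and Pik3ip1 (0.47, adjusted p = 0.0164) rose, and the interleukin 7 receptor gene Il7r (−0.44, adjusted p = 0.0036), the NF-kB inhibitor gene Nfkbia (−0.37, adjusted p = 0.0125) and Bcl6 (−0.37, adjusted p = 0.0377) fell. The list thus split evenly, and the calls of Sgk1 and Il7r alone among the 6 were kept without each of the 4 arrays. In the SRC-3 comparison the smallest p belonged to Tgfbr3 (−0.32, adjusted p = 0.15) and Sgk1 (−0.36, adjusted p = 0.155).

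Of 8 Th2 genes kept, 3 rose in RORγt-deficient cells, Gata3 (0.86, adjusted p = 0.0138), Il13 (0.34, adjusted p = 0.00976) and the chemokine receptor gene Ccr8 (0.37, adjusted p = 0.0263), and Il24 fell (−1.32, adjusted p = 0.0195). The share called was thus 50%, against 19.4% of all genes. Each of these 4 calls was lost without at least 1 array of the comparison. In the SRC-3 comparison 0 of the 8 passed by limma, against 0.225% of all genes. There 4 had an unadjusted p under 0.05, as did 1394 of the 11128 genes tested. Gata3 gave 0.80 (adjusted p = 0.121) and Il9 1.19 (adjusted p = 0.133). Il9 read 8.33 and 9.27 on the SRC-3-deficient arrays, against 7.45 and 7.77 on their wild-type arrays. It reached the filter value on 3 arrays, both SRC-3-deficient arrays among them. It was kept only through that group, so its p is no support. Another list held 7 genes of cytokines and the STAT5 pathway that bear on the enzyme of Akr1c18 in T cells or ovary. In the SRC-3 comparison 0 of the 7 passed by limma (1 at an unadjusted p under 0.05), against 0.225% of all genes. Socs2 gave 0.43 there (adjusted p = 0.162) and Csf2 0.31 (adjusted p = 0.418). Without RORγt 28.6% of the 7 were called, against 19.4% of all genes. In the RORγt comparison Socs2 rose (0.43, adjusted p = 0.0294, lost without any 1 of the 4 arrays) and Csf2 fell (−1.07, adjusted p = 0.00369). Il3, the gene of the cytokine that raises this enzyme activity in mouse T cells, read 6.997 and 6.74 on the SRC-3-deficient arrays, against 7.02 and 6.10 on the SRC-3 wild-type arrays, and 8.20 and 8.94 on the RORγt-deficient arrays, against 8.84 and 8.46 on the RORγt wild-type arrays. Its groups overlapped in both experiments.

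Among markers of other cells, 2 of 6 for CD8 T and NK cells and 1 of 5 for B cells were kept by the filter and so tested. In the RORγt comparison 1 of the 2 and the 1 B cell marker were called, and 0 in the SRC-3 comparison. Of all genes, 19.4% were called in the first and 0.225% in the second. Marker signals of a list were summed on the linear scale and the sum is given as log2, so the brightest genes weigh most. The sum of 6 markers of CD8 T and NK cells was 10.29 to 10.40 in RORγt-deficient cells, against 9.81 to 9.83 in their wild type. It was 9.75 to 9.76 in SRC-3-deficient cells, against 9.58 to 9.65 in their wild type. Klrd1 read 8.92 and 8.61 in RORγt-deficient cells, against 7.01 and 6.71 in their wild type; it passed the filter through these 2 deficient arrays alone, so its call is no support. Its difference without SRC-3 was −0.46. Cd8b1 was above the filter on all 8 arrays. It read 8.91 and 8.75 in SRC-3-deficient cells, against 8.54 and 8.29 in their wild type (0.42, limma adjusted p = 0.133). In RORγt-deficient cells it read 9.14 and 9.13, against 8.92 and 8.998 in their wild type (0.18, limma adjusted p = 0.229). Ncr1, Klrb1c, Gzma and Cd8a were below the filter on all arrays. The sum of 5 B cell markers was 10.57 on both arrays of RORγt-deficient cells, against 11.58 to 11.71 in their wild type, through Ebf1, while Cd79a, Ms4a1, Pax5 and Cd22 were below the filter. It was 10.73 to 10.79 in SRC-3-deficient cells, against 10.24 to 10.83 in their wild type. The sum of 7 basophil and mast cell markers was 9.06 to 9.10 in SRC-3-deficient cells, against 9.07 to 9.17 in their wild type, and 9.08 to 9.15 in RORγt-deficient cells, against 9.16 to 9.20 in theirs, and 6 of the 7 were below the filter on every array. None of the 6 macrophage markers and none of the 5 dendritic cell markers measured passed the filter. The part of these cells in the values of Akr1c18 and Ephx1 was not tested.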

How the data were processed

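Total RNA of CD4 T cells cultured toward the Th17 fate was measured on 8 arrays, 2 in each of 4 groups, and samples were grouped by the genotype and experiment in their titles. The titles call the arrays of a group biological replicates without naming separate mice, and p-values then reflect only how far these samples vary. The deposited values are log2 signals from the authors, who ran RMA and used Affymetrix Expression Console (version not given), per the submitters' processing notes; they were used without a new normalization.

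Of 35556 probe sets, the 21789 with 1 symbol in the platform table were used. Probe sets at or above 7.85, the median of all values, on at least 2 arrays were kept, and the one with the highest mean stood for its gene, which left 11128 genes; 3 of the 4 genes described passed. The platform's symbols were checked by gene ID against RefSeq (GRCm38.p6), which changed 0 and lacked 91. Group means were fitted with limma 3.58.1 in R 4.3.3 on all 8 arrays, two-sided, with Benjamini-Hochberg adjustment over all genes and a threshold of 0.05, and the SE is that of this moderated fit; the fit was tested on simulated data. The number of arrays limits the precision. The 4 genes and the lists were chosen with earlier results of these data known, the lists by function. The genes named from a list are up to 6 per comparison and direction past the threshold by smallest p, or else up to 2; genes most like one of the 4 were the 4 with the highest r among genes ranging over at least 1 log2 unit, predicted genes left out; Ncoa3 and sex-linked genes are named too, and other genes are named for their role or were chosen after their values were seen. Alternatives were other normalizations, filters, probe set summaries, fits and thresholds, and leaving out each array. Some genes are not reported here.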

Additional observations from a re-analysis of the deposited data

How the results depend on the processing

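The number of arrays, 2 per group, limits all values, and low signals limit those of Hsd11b1 and the other genes under the filter. The differences of the 4 enzyme genes moved by no more than the spread between replicates in the alternatives run. Most of these could not move them further. The 4 arrays alone, the replicate block and the mean of probe sets return the same differences by design. A new quantile normalization and a shift to 1 median gave Akr1c18 2.63 and 2.55 without SRC-3, and 0.88 and 0.95 without RORγt. Ephx1 gave 0.85 and 0.86, and 0.58 and 0.63. Leaving out 1 of 2 arrays cannot move the differences by more than that spread. Without single arrays they lay between 2.31 and 2.83 (Akr1c18), 0.77 and 0.99 (Ephx1), −0.36 and 0.13 (Cyp11a1) and −0.03 and 0.06 (Hsd11b1) in the SRC-3 comparison, and between 0.66 and 1.20, 0.51 and 0.71, 0.08 and 0.73, and −0.07 and 0.00 in the RORγt comparison.

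Of all genes in the SRC-3 comparison, 25 were called as reported, 0 with its 4 arrays alone (limma, 827 at an unadjusted p under 0.05), 47 with an intensity trend, 10 with array weights, 14 with the stricter filter (9.78) and 129 at an adjusted p of 0.1; without single arrays the count lay between 0 (without wild-type replicate 2) and 61 (without wild-type replicate 1), and it was 10 without deficient replicate 1. Pathway genes called there numbered 0, and between 0 and 1 without single arrays, the 1 being Il9 without deficient replicate 1. In the RORγt comparison 2157 genes were called as reported, 3389 with its 4 arrays alone and 3679 with array weights, and between 486 and 1001 without single arrays; of the 97 pathway genes 27 were called, 43 and 42 under the first 2 of these, and between 10 and 14 without single arrays. With the replicate number as a block within each experiment 301 and 3411 genes were called in the SRC-3 and RORγt comparisons, and 5 and 43 pathway genes. Deviations of arrays with the same number correlated with r = 0.54 in the SRC-3 and 0.00 in the RORγt experiment, over genes, and no label says that equal numbers share an origin. The 5 pathway genes called with the block in the SRC-3 comparison were Nqo2, Paqr8, Tgfbr3, Gata3 and Il9. Il9 was kept by the filter only through the SRC-3-deficient arrays, so its calls are no support. Of the 27 called without RORγt, 8 were kept without each array in turn and 19 were lost without at least 1. Akr1a1 lay between −0.0327 and 0.0894 in the SRC-3 comparison without single arrays, its sign turned without deficient replicate 2 and wild-type replicate 1 (−0.0228). The cause of these changes was not tested.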
